A study of Mus musculus with 36 samples.

Results

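The regions described here are sites in mouse embryonic stem cells (ESCs) where the chromatin remodeler CHD4 was called away from promoters and where its NuRD partner MBD3 was not called. They were chosen by peak calls. Each is a peak of CHD4 replicate 1 that overlapped a peak of replicate 2 by at least 1 bp, had its midpoint more than 1 kb from every protein-coding transcription start site (TSS, mm9 and GENCODE vM1), and overlapped no peak of either ESC MBD3 list and none of CHD4 in neural progenitor cells (NPCs). This gave 3576 members among 8232 replicated CHD4 sites on chromosomes 1 to 19, X and Y, and 14 replicated sites on other contigs were left out. Members were compared with 3 other classes of replicated CHD4 site: 2670 distal sites with an MBD3 peak and 632 sites within 1 kb of a TSS without one, both without a CHD4 peak in NPCs, and 494 distal sites without MBD3 that did have a CHD4 peak in NPCs. The remaining 860 sites belonged to none of these.

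ESCs were wild-type R1 cells grown in serum and LIF with 2i, and NPCs were derived from them and kept in NPC medium. Peak lists came from ChIP with antibodies to CHD4 and MBD3 (2 ESC lists and 1 NPC list each), to SIN3A in ESCs (1 list without and 1 list with spike-in chromatin), and to GFP in an ESC line labelled ZFP296-BAC R1. ZFP296 and both NPC factors have no replicate list, and the study's methods describe the tagged ZFP296 construct in another ESC line, KH2. The peak names of CHD4 replicate 2 (29974 of 29974) mention a BAC for another protein, Zfp219, while its sample is described as wild type, so the main shares are also given without each CHD4 list. Peak names of 7 lists, all but those of SIN3A, mention a common number of reads, but no list gives reads per peak. Depth behind a single peak is therefore unknown, and absence of a peak means only that none was called. All intervals (95%, exact, Clopper-Pearson for shares) and p-values cover counting over sites only. Sites of a list are not replicate experiments, and the tests treat them as independent although many lie close together. Each peak carries a value on the −log10 scale from the authors' peak caller, called the authors' value below.

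CHD4 is the ATPase of the NuRD complex, which couples nucleosome remodeling to histone deacetylation, and MBD3 is one of the subunits that tie the remodeler to the deacetylases. CHD4 is also part of ChAHP, a complex with the zinc finger protein ADNP and HP1 proteins that holds no MBD3 and that is known in mouse ESCs for occupying SINEs, short repeated elements copied through RNA. The rodent B2 family of SINEs derives from a tRNA gene and keeps an internal RNA polymerase III promoter with an A box and a B box, while the B1 family derives from 7SL RNA. The study also lists MBD2 as a core NuRD subunit and states that some paralogous subunits exclude each other from a complex. A CHD4 site without MBD3 is therefore not by itself a site without NuRD. None of ADNP, HP1 and MBD2 was profiled in the lists used here.

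Many members lay on repeated DNA, and the sequences show it directly. Frequent words of 14 nt in the 600 bp windows around the 1747 members on odd-numbered chromosomes were extended into consensus sequences, with no repeat annotation. The first word occurred in 271 of these windows (15.5%) and grew into an element of 180 nt. After masking it, the next word occurred in 249 windows (14.3%) and grew into an element of 144 nt. A further round gave a word in 16 windows (0.916%). From their sequence these elements are recognisable as the B2 and B1 families, and they are called B2-like and B1-like below. The consensus sequences follow because the comparison of classes turns on them. Capitals mark a match to the B box pattern GTTCNANNC, at positions 61 to 69 and 68 to 76.
B2-like consensus: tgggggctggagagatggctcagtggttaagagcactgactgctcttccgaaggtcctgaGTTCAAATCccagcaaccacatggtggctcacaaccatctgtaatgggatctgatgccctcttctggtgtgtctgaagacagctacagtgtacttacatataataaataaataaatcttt
B1-like consensus: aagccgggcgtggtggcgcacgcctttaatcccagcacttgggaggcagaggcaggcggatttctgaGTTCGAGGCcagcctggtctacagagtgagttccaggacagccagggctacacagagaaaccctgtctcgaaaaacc

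The best-ranked member with a B2-like copy is shown next, with the part aligned to the consensus in capitals. Rank was the worse of a site's percentile ranks by the authors' value in the CHD4 lists. The sequence is the central 200 bp, plus strand, mm9.
Member near Tbx3, chr5:120151303-120151502: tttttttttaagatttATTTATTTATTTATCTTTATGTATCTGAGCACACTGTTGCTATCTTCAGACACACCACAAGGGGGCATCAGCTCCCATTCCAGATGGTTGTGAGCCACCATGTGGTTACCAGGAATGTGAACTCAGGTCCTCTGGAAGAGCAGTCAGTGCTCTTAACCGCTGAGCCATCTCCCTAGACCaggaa
The member near Tbx3, a transcription factor gene of naive pluripotency, held 179 aligned bases, on the strand opposite to the consensus as printed.

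The elements were built from windows of members on odd-numbered chromosomes, so the shares over all chromosomes given next are a description. The central 200 bp touched a B2-like copy at 988 of 3576 members (27.6%, 26.2 to 29.1), against 16.1% of all replicated CHD4 sites and 41 of 2670 distal sites with MBD3 (1.54%, 1.10 to 2.08). The share was 8.86% (6.76 to 11.4) at promoter sites without MBD3 and 40.5% (36.1 to 44.96) at distal sites without MBD3 kept in NPCs. B1-like copies were touched at 578 members (16.2%, 15.0 to 17.4), against 10.3% of all replicated sites and 5.43% (4.60 to 6.36) of distal sites with MBD3. Either element lay under 1464 members (40.9%, 39.3 to 42.6), and neither under 2112.

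The test used the even-numbered chromosomes, which had no part in building the consensus, and it was added after these shares had been seen. There, 475 of 1816 members held a B2-like copy (26.2%, 24.1 to 28.2) against 19 of 1285 distal sites with MBD3 (1.48%, 0.892 to 2.30), an odds ratio of 23.6 (14.8 to 39.8, Fisher's exact test, two-sided, adjusted p = 4.31e-95 over 6 tests). It was 41.0 without CHD4 replicate 1 and 13.4 in 500 bp windows. Against promoter sites the odds ratio was 4.36 (2.78 to 7.17, exact adjusted p = 4.56e-14), with 8.88 without CHD4 replicate 1 and 1.41 with a TSS limit of 5 kb (exact adjusted p = 0.00711). Against distal sites kept in NPCs it was 0.470 (0.351 to 0.631, exact adjusted p = 4.35e-07), so the B2-like share was lower at members than at the sites that NPCs also had. The difference from sites kept in NPCs did not pass for copies of at least 100 bp and 85% identity (odds ratio 0.722, exact adjusted p = 0.0731).

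B1-like copies differed less. On even-numbered chromosomes the share was 15.3% (13.7 to 17.05) at members and 4.98% (3.86 to 6.32) at distal sites with MBD3 (odds ratio 3.45, 2.59 to 4.65, exact adjusted p = 1.39e-20). Against promoter sites the odds ratio was 1.78 (1.17 to 2.81, exact adjusted p = 0.00537), a call that was lost with a TSS limit of 5 kb, with longer and closer copies, and without chromosomes 6 and 8 (adjusted p = 0.211, 0.0893 and 0.0910), while without CHD4 replicate 1 it was 3.31. Against distal sites kept in NPCs it was 2.76 (1.58 to 5.22, exact adjusted p = 9.24e-05), which was lost in 500 bp windows (1.36, adjusted p = 0.0879).

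Copies too diverged for the genome-wide search were not counted in these shares. When the 200 bp windows were searched directly, 1097 members (30.7%, 29.2 to 32.2) held a B2-like stretch, against 1.76% of distal sites with MBD3, 9.18% of promoter sites and 247 of 494 sites kept in NPCs. B1-like stretches then lay in 17.1% of members and 7.15% of distal sites with MBD3, and 1956 members (54.7%, 53.0 to 56.3) had neither. All 6 calls passed with this search, and the odds ratio of B2-like copies against distal sites with MBD3 was 27.5 (exact adjusted p = 1.28e-110).

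The surroundings of members were themselves rich in SINEs. In windows 10 kb to the left and right of members, B2-like copies were touched by 6.29% and 6.54% and B1-like copies by 10.8% and 10.5%, while all 200 bp windows of mm9 gave 2.11% and 3.59%. Members therefore exceeded their own flanks by a wider margin for B2-like than for B1-like copies, a comparison given without a test.

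**Figure D1:**
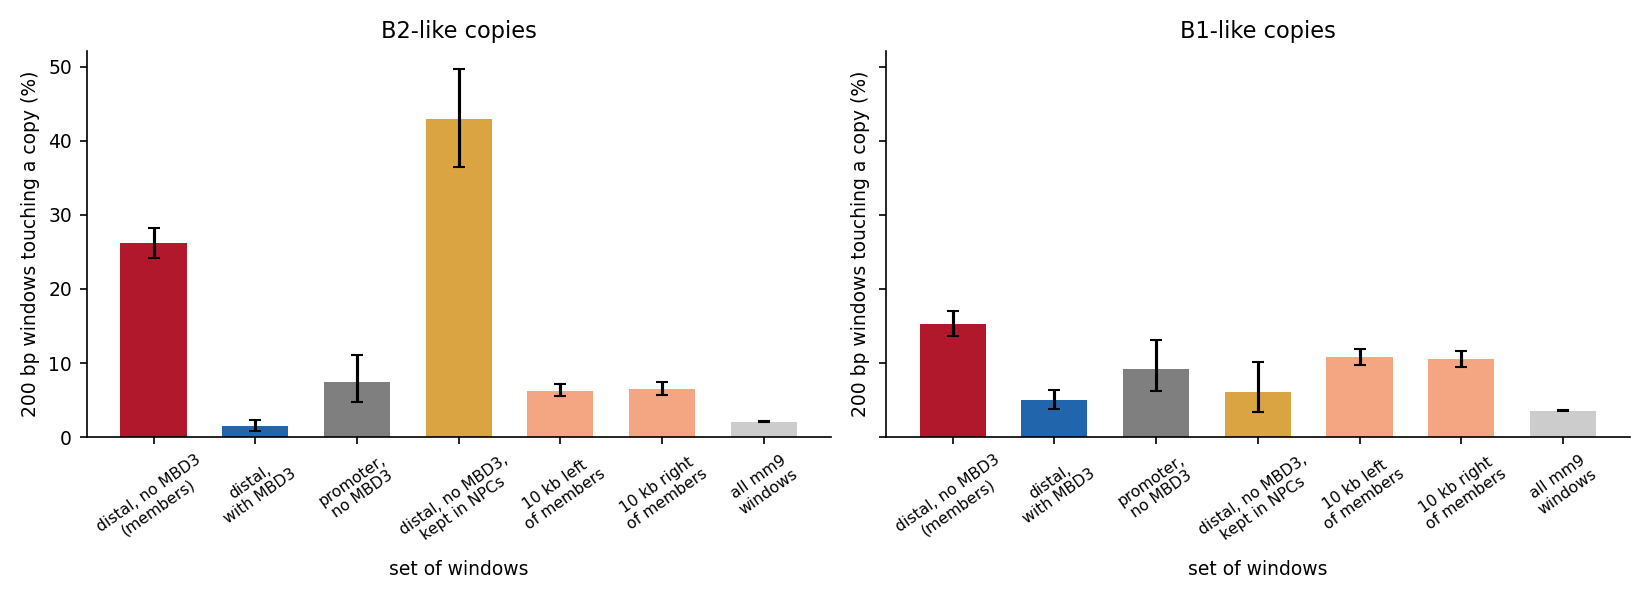
Share of 200 bp windows touching a B2-like (left) or B1-like (right) copy, in percent, with 95% exact intervals. The 4 CHD4 classes are on even-numbered chromosomes, and the flanks and all mm9 windows are on all chromosomes. Members reach 26.2% for B2-like copies, distal sites with MBD3 1.48%, and sites kept in NPCs 43.0%.

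The separate lists showed the same contrast between factors. B2-like copies lay at the centre of 15.5% of CHD4 replicate 1 peaks and 16.4% of replicate 2 peaks. They lay under 7.14% of NPC CHD4 peaks. In every other list the share was below that of all mm9 windows: 0.299% and 0.385% of the ESC MBD3 peaks, 0.217% of NPC MBD3 peaks, 0.583% of ZFP296 peaks, and 0.173% and 0.0789% of SIN3A peaks without and with spike-in. B1-like copies lay under 12.05% and 5.88% of CHD4 peaks in ESCs, so for this element the CHD4 lists were further apart.

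The B2-like share of members did not hang on the combination of CHD4 lists. It was 23.5% when members were taken from replicate 1 alone and 24.0% from replicate 2 alone, against 1.57% and 1.03% of distal sites with MBD3. The B1-like share of members was 17.2% and 8.04% in the same settings. The share from replicate 2 alone was below the 10.8% and 10.5% in the flanks of the main members. The authors kept only uniquely mapped reads, and how that acts on copies of differing similarity was not tested.

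Only a small part of all copies carried a member. The search found 164729 B2-like copies in mm9, of which 1044 (0.634%) were touched by the centre of a member, and 293469 B1-like copies, of which 602 (0.205%) were. B2-like copies under members had a median length of 168 bp and a median identity to the consensus of 88.6%, against 160 bp and 87.0% for all copies. Per 1000 copies, members touched 3.51 of those below 80% identity, 8.05 of those from 85% to 90%, 7.34 of those from 90% to 95% and 5.13 of those at 95% or more. Median copy lengths were 100, 171, 175 and 133 bp in the same order. For B1-like copies the rates were 1.28, 2.10, 2.33 and 2.92, and the median lengths 118, 130, 140 and 141 bp. A longer copy is more easily touched by a window, and identity and length were not separated.

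Peaks lay toward the start of the B2-like element. The midpoint of the member fell a median of 31 nt after the element's 5′ end (quartiles -12 and 77), and 82.1% of midpoints lay before the middle of the 180 nt. Midpoints at B1-like copies were spread more evenly, with a median of 62 nt (quartiles -2.75 and 127) and 53.8% before the middle of the 144 nt. Positions are limited to 100 bp around a copy by construction.

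**Figure D2:**
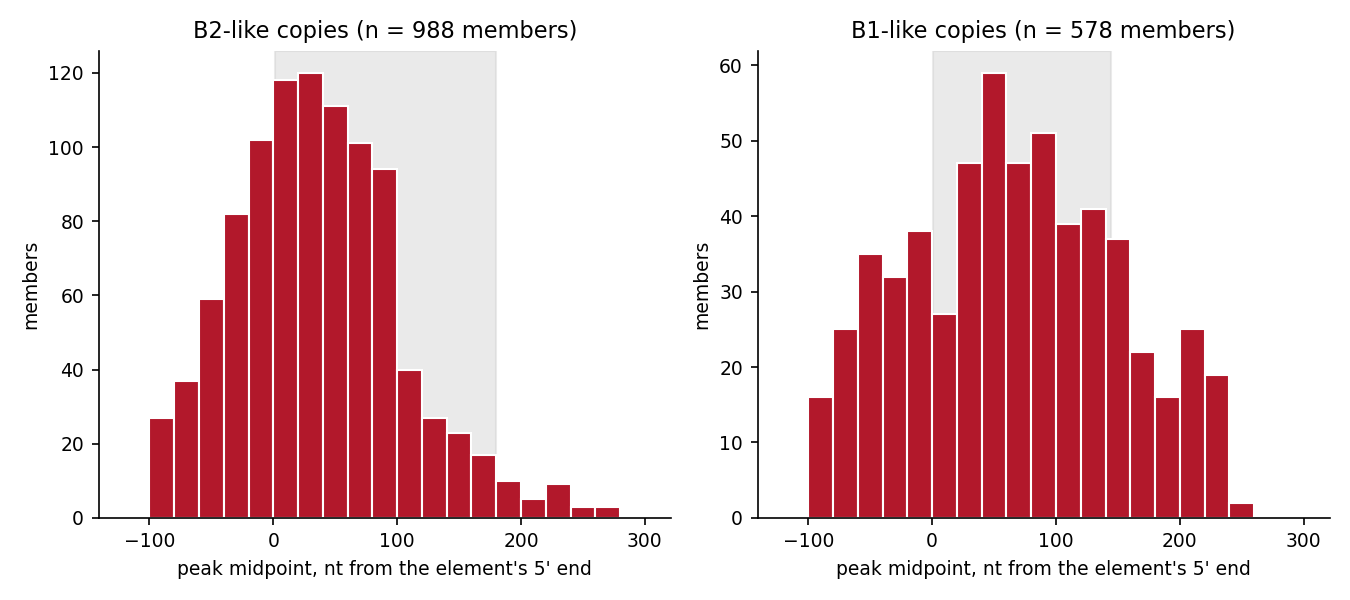
Histograms of the position of the peak midpoint relative to the 5′ end of the B2-like (988 members) and B1-like (578 members) element, in nt along the element's strand, with the element's length shaded. At B2-like copies 65.6% of midpoints lie inside the element, with a median of 31 nt, and at B1-like copies 54.2%, with a median of 62 nt.

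ZFP296 and SIN3A were then set against the classes, to see whether the partners studied with NuRD also occupied CHD4 sites that lack MBD3. ZFP296, a zinc finger protein of pluripotent cells, and SIN3A, the scaffold of another histone deacetylase complex, were both rare at members. A ZFP296 peak overlapped 164 of 3576 members (4.59%, 3.92 to 5.32), against 15.4% of all replicated CHD4 sites and 913 of 2670 distal sites with MBD3 (34.2%, 32.4 to 36.0). A SIN3A site called in both lists overlapped 87 members (2.43%, 1.95 to 2.99), against 13.1% of all replicated sites, 16.9% (15.5 to 18.4) of distal sites with MBD3 and 26.7% (23.3 to 30.4) of promoter sites without MBD3.

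Both factors differed between members and distal sites with MBD3. By Fisher's exact test (two-sided, adjusted over 6 tests) the odds ratio of members to distal sites with MBD3 was 0.0925 for ZFP296 (0.0771 to 0.111, adjusted p = 1.97e-214) and 0.122 for SIN3A (0.0956 to 0.155, adjusted p = 1.84e-93). The first was 0.161 without MBD3 replicate 2, and the second 0.204 without MBD3 replicate 1. The SIN3A odds ratio against promoter sites was 0.0684 (0.0512 to 0.0908, exact adjusted p = 1.72e-83), from 0.0450 without CHD4 replicate 1 to 0.105 without one or the other MBD3 list or with a TSS limit of 5 kb. Without CHD4 replicate 1, ZFP296 lay at 2.56% of members and 26.3% of distal sites with MBD3, and SIN3A at 1.88% and 10.8%. Without CHD4 replicate 2 these shares were 3.50% and 33.1% for ZFP296, and 1.72% and 16.0% for SIN3A. ZFP296 was not detectably different between members and promoter sites without MBD3 (5.22%, 3.62 to 7.26), with an odds ratio of 0.872 (0.591 to 1.32, exact adjusted p = 0.475). That odds ratio became 1.42 (exact adjusted p = 0.0158) when MBD3 replicate 2, the longer MBD3 list, was left out.

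Sites kept in NPCs differed less from members. ZFP296 overlapped 10 of 494 of them (2.02%, 0.975 to 3.69), giving an odds ratio of 2.33 (1.22 to 4.98, exact adjusted p = 0.00730). This call was lost when overlap had to reach 50% of the shorter peak (1.38, exact adjusted p = 0.343), with a TSS limit of 5 kb (1.81, adjusted p = 0.114), without CHD4 replicate 2 (1.49, adjusted p = 0.227), and without CHD4 replicate 1, where the odds ratio was 0.908 (adjusted p = 0.543). SIN3A overlapped 5.06% (3.30 to 7.38) of sites kept in NPCs (odds ratio 0.468, 0.293 to 0.770, exact adjusted p = 0.00279). This was 0.310 without CHD4 replicate 1, and it was lost with the SIN3A list without spike-in alone (0.818, exact adjusted p = 0.250).

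**Figure D3:**
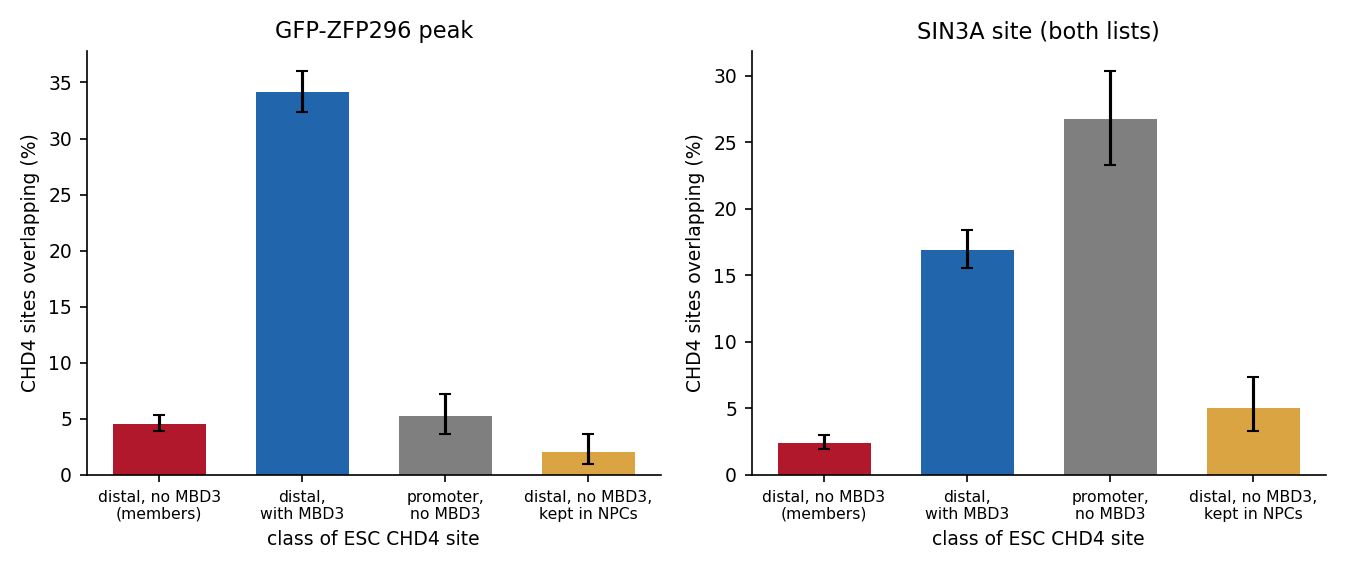
Share of ESC CHD4 sites overlapping a GFP-ZFP296 peak (left) or a SIN3A site called in both lists (right), in percent, for the 4 site classes, with 95% exact intervals over sites. ZFP296 lies at 4.59% of members and 34.2% of distal sites with MBD3, and SIN3A at 2.43% of members and 26.7% of promoter sites without MBD3.

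The single SIN3A lists gave higher shares with the same order. Without spike-in, 314 members (8.78%, 7.87 to 9.76) had a SIN3A peak, against 26.8% of all replicated sites. With spike-in, 139 members (3.89%, 3.28 to 4.57) had one, against 16.5% of all replicated sites. An NPC MBD3 peak overlapped 2 members (0.0559%, 0.00677 to 0.202), against 1.65% of all replicated sites. That background includes sites with an NPC CHD4 peak, which the rule took out of the members. In the classes that also lack an NPC CHD4 peak, the share was 0.0749% at distal sites with MBD3 and 1.11% at promoter sites. The low share is therefore not particular to members. Both ZFP296 and SIN3A lay at 21 members (0.587%, 0.364 to 0.896), against 4.30% of all replicated sites, 8.84% of distal sites with MBD3 and 0.202% of sites kept in NPCs.

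The ZFP296 share of members showed no order with the CHD4 value, unlike that of sites with MBD3, a description without a test. From the lowest to the highest quartile of the authors' value in CHD4 replicate 1, the ZFP296 share of members was 5.35%, 4.34%, 4.06% and 4.51%. At distal sites with MBD3 it was 26.7%, 28.3%, 33.6% and 43.0%. B2-like copies followed another order, with 19.4%, 28.3%, 32.1% and 32.7% of members, and 0.200%, 1.34%, 2.00% and 2.06% of distal sites with MBD3.

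**Figure D4:**
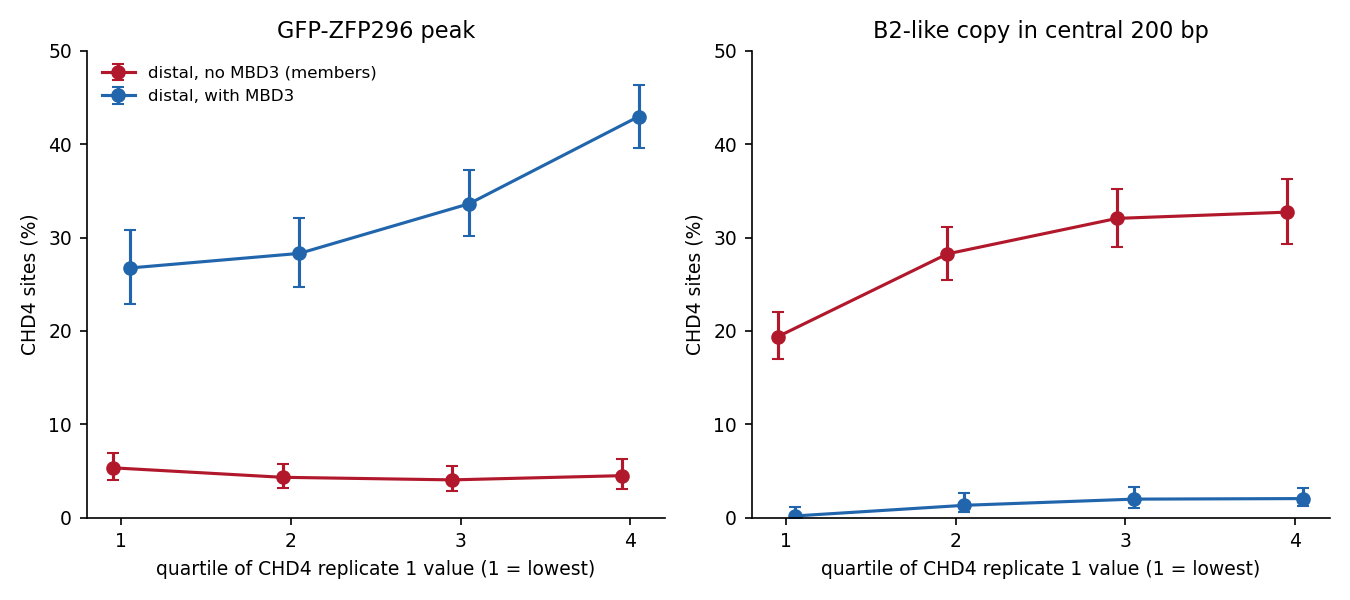
Share of sites with a ZFP296 peak (left) and with a B2-like copy in the central 200 bp (right), in percent with 95% exact intervals, by quartile of the authors' value in CHD4 replicate 1 over all replicated sites. Members stay between 4.06% and 5.35% for ZFP296 while distal sites with MBD3 go from 26.7% to 43.0%, and B2-like copies in members go from 19.4% to 32.7%.

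Members with and without SINE copies differed in the factors they shared. Among 886 members with a B2-like copy only, 6 had a ZFP296 peak (0.677%) and 1 a SIN3A site (0.113%). Among the 2112 members with neither element the counts were 138 (6.53%) and 82 (3.88%). The odds ratio was 0.0976 for ZFP296 (0.0351 to 0.219, Fisher's exact test, two-sided, adjusted p = 2.36e-14 over 4 tests added after the shares had been seen) and 0.0280 for SIN3A (0.000699 to 0.161, adjusted p = 1.58e-11), and without CHD4 replicate 1 these were 0.0370 and 0.00941. Among 476 members with a B1-like copy only, 17 had ZFP296 (3.57%, odds ratio 0.530, 0.297 to 0.891, exact adjusted p = 0.0135) and 3 had SIN3A (0.630%, odds ratio 0.157, 0.0316 to 0.479, adjusted p = 6.76e-05). The ZFP296 call for B1-like copies was lost in 3 settings: with a TSS limit of 5 kb, without CHD4 replicate 1, and with longer and closer copies (exact adjusted p = 0.0575, 0.432 and 0.154).

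The difference from sites with MBD3 was also present away from SINEs. When all sites with either element were left out, the odds ratio of members to distal sites with MBD3 was 0.133 for ZFP296 (exact adjusted p = 2.57e-127) and 0.190 for SIN3A (exact adjusted p = 1.35e-52). The median authors' value was 8.95 and 12.1 (CHD4 replicates 1 and 2) at members with a B2-like copy only and 7.76 and 9.94 at members with neither element, given as a description because CHD4 values entered the choice of sites.

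Where ZFP296 or SIN3A was called at a member, its value passed no test against the other classes, but calls appeared when single ESC lists were left out. The median ZFP296 value was 8.92 at 164 members and 9.85 at 913 distal sites with MBD3, a difference of -0.93 (two-sided permutation test, 100000 resamples, adjusted p = 0.156 over 6 tests). This difference passed the threshold in each of 4 settings that left out 1 ESC list: permutation adjusted p = 3.00e-05 without CHD4 replicate 1, 0.00156 without CHD4 replicate 2, 0.00606 without MBD3 replicate 1 and 0.000120 without MBD3 replicate 2. The median SIN3A value in the list with spike-in was 8.33 at 139 members and 8.88 at 607 distal sites with MBD3 (permutation adjusted p = 0.353), and 9.06 at 190 promoter sites (adjusted p = 0.273). The SIN3A differences passed without CHD4 replicate 1 (-0.85 and -1.54, permutation adjusted p = 0.00924 and 3.00e-05) and without MBD3 replicate 2 (-1.45 and -0.90, permutation adjusted p = 0.000240 and 0.0357), and the first was -0.05 without MBD3 replicate 1. Against sites kept in NPCs, the ZFP296 difference of -0.94 became -1.99 and passed without CHD4 replicate 1 (permutation adjusted p = 0.00572).

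Short strings for transcription factors of ESCs were searched on both strands of the central 200 bp. They were the POU5F1 octamer ATGCAAAT, SOX2 CCATTGT, OCT4-SOX2 TTGTNATGC, ESRRB TCAAGGTCA, KLF GGGTGTGG, AP-1 TGANTCA, STAT TTCCNGGAA, TEAD ACATTCC, the CTCF core AGGGGGC and the telomere unit TTAGGG. POU5F1 (OCT4) and SOX2 bind DNA together as core pluripotency factors, ESRRB and KLF proteins belong to the naive network, and STAT factors relay LIF. The OCT4-SOX2 string can overlap both the octamer and the SOX2 string. A match is a description of letters and not a bound site.

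Strings of the pluripotency factors were fewer at members than at distal sites with MBD3. The OCT4-SOX2 string lay in 31 members (0.867%, 0.590 to 1.23), against 1.58% of all replicated sites, 3.37% (2.72 to 4.13) of distal sites with MBD3 and 0.527% of all mm9 windows. It was found in 0 of 632 promoter sites, which allows a share of up to 0.475% by a limit of 3 counts and 0.582% by the exact interval. Its odds ratio against distal sites with MBD3 was 0.251 (0.161 to 0.382, Fisher's exact test, adjusted p = 1.28e-11 over 30 tests), and 0.396 without MBD3 replicate 2. The octamer lay in 1.76% of members and 5.54% of distal sites with MBD3 (2.88% of all replicated sites, 1.73% of mm9 windows, odds ratio 0.306, exact adjusted p = 1.26e-14). The SOX2 string lay in 3.16% and 6.97% (4.20% of all replicated sites, 3.51% of mm9 windows, odds ratio 0.436, exact adjusted p = 3.67e-11), so for the octamer and SOX2 the share of members was close to that of the genome.

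ESRRB and KLF strings lay in between. ESRRB was held by 97 members (2.71%, 2.21 to 3.30), against 5.02% of distal sites with MBD3, 3.11% of all replicated sites and 0.421% of mm9 windows (odds ratio 0.528, exact adjusted p = 1.07e-05). KLF was held by 212 members (5.93%, 5.18 to 6.75), against 9.18%, 6.80% and 1.19% (odds ratio 0.624, exact adjusted p = 6.89e-06, lost without MBD3 replicate 2 at 0.847 and adjusted p = 0.247). Among members with neither SINE the ESRRB share was 3.60% and the KLF share 7.34%, and among members with a B2-like copy they were 0.709% and 1.52%. TEAD, in 2.74% of members and 6.67% of distal sites with MBD3, and STAT, in 0.867% and 1.69%, were also lower (odds ratio 0.395 and 0.510, exact adjusted p = 2.14e-12 and 0.0101, all replicated sites 4.09% and 1.20%).

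The CTCF core was more frequent at members than at distal sites with MBD3, but below its share of all replicated sites. It lay in 248 members (6.94%, 6.12 to 7.82), against 4.23% (3.50 to 5.07) of distal sites with MBD3, 7.48% of all replicated sites and 1.55% of mm9 windows (odds ratio 1.69, 1.34 to 2.14, exact adjusted p = 1.66e-05). It was lower than at promoter sites without MBD3 (14.1%, odds ratio 0.455, exact adjusted p = 1.00e-07) and at sites kept in NPCs (11.3%, odds ratio 0.583, adjusted p = 0.00267). The AP-1 string lay in 6.57% of members and 12.8% of sites kept in NPCs (odds ratio 0.481, exact adjusted p = 1.66e-05, all replicated sites 6.50%), and did not differ detectably from distal sites with MBD3 (5.81%, odds ratio 1.14, 0.921 to 1.42, adjusted p = 0.320). The telomere unit lay in 7.24% of members and 9.48% of distal sites with MBD3 (7.94% of all replicated sites, 7.57% of mm9 windows, odds ratio 0.746, exact adjusted p = 0.00407, lost without MBD3 replicate 2 at adjusted p = 0.608). In all, 17 of 30 tests passed.

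Against the other classes some of the same strings were more frequent at members. The SOX2 string was more frequent than at promoter sites without MBD3 (odds ratio 3.40, 1.51 to 9.51, exact adjusted p = 0.00267), with 2.17 without MBD3 replicate 2 and 1.95 with a TSS limit of 5 kb. So were the OCT4-SOX2 string (exact adjusted p = 0.0179), whose call was lost at 5 kb (odds ratio 2.96, adjusted p = 0.0597), and the AP-1 string (odds ratio 2.05, exact adjusted p = 0.00272). The ESRRB string was more frequent than at promoter sites (odds ratio 2.91, exact adjusted p = 0.0101) and than at sites kept in NPCs (odds ratio 3.41, exact adjusted p = 0.0149), a call that was lost at 5 kb (2.58, adjusted p = 0.0977). At promoter sites the SOX2 and AP-1 shares were 0.949% and 3.32%, below the 3.51% and 5.93% of mm9 windows. At members they were 3.16% and 6.57%, close to those of mm9 windows. The ESRRB share of promoter sites, 0.949%, was above the 0.421% of mm9 windows.

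**Figure D5:**
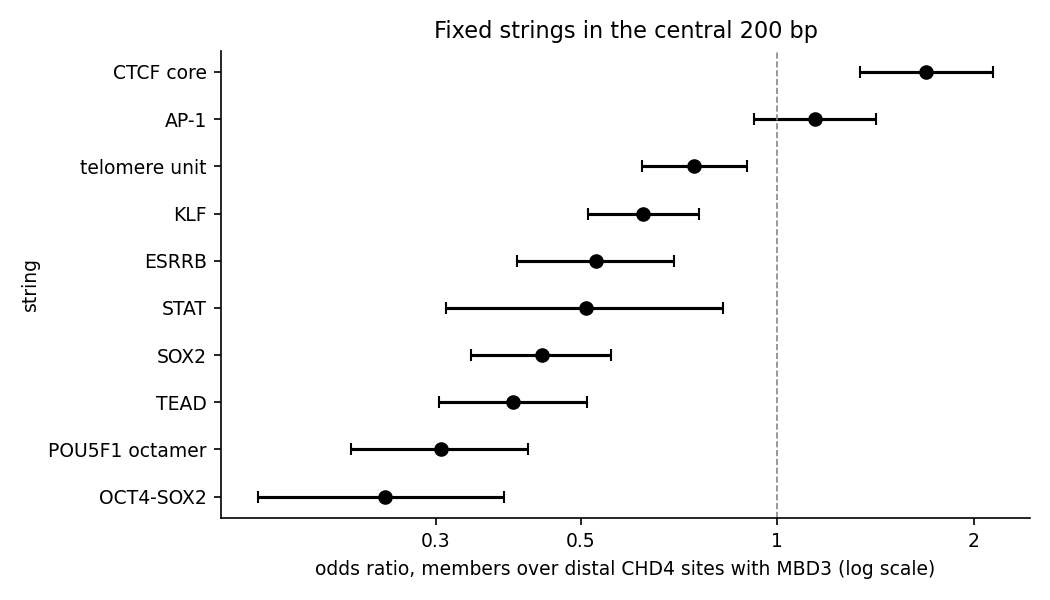
Odds ratio of each fixed string in the central 200 bp of members over distal CHD4 sites with MBD3, with 95% exact interval, on a log axis. The CTCF core sits at 1.69 and AP-1 at 1.14 with an interval that spans 1, and the other strings lie between 0.251 and 0.746.

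The members with an OCT4-SOX2 string and the best rank are shown with the string in capitals, since few members held it. Sequences are plus strand, mm9.
Member near Wwc2, chr8:49006182-49006381: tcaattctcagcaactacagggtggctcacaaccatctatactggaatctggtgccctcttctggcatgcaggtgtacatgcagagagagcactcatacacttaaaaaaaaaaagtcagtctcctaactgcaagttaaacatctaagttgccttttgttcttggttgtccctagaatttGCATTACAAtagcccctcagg
Member near 5530401A14Rik, chr11:81430006-81430205: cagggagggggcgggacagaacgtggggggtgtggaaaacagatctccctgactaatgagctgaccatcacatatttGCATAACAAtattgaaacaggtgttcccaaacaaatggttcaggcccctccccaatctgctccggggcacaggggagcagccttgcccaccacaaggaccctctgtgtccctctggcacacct
Member near Sema4b, chr7:87297728-87297927: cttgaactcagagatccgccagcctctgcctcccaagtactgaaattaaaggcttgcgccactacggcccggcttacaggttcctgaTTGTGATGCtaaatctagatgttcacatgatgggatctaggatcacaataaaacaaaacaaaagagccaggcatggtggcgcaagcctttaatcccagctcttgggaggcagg
The first lay in an intron of Wwc2, 69615 bp from its TSS, and also held a B2-like copy. The second lay in an intron of Accn1, held KLF and CTCF core strings as well, and carried a ZFP296 peak (value 11.3). The last was intergenic, near Sema4b, with a B1-like copy and authors' values of 12.2 and 23.9.

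Base composition set members apart from promoters and little from other distal sites. The median G+C share was 49.5% at members, 49.0% at distal sites with MBD3 (difference 0.5 percentage points, two-sided permutation test, 100000 resamples, adjusted p = 0.956) and 62.3% at promoter sites (difference -12.8, adjusted p = 1.50e-05, from the smallest unadjusted p these resamples can give). CpG dinucleotides averaged 3.33 ± 3.43 (SD over 3576 sites) at members, 2.78 ± 3.22 at distal sites with MBD3, 13.0 ± 9.13 at promoter sites and 4.71 ± 5.85 at sites kept in NPCs, each different from members at the same adjusted p. The CpG difference from distal sites with MBD3, 0.56 per window, was 0.86 without CHD4 replicate 1 and 0.31 without MBD3 replicate 2. With a TSS limit of 5 kb the differences from promoter sites were -4 percentage points for G+C and -5.23 for CpG.

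The CHD4 signal and position of members are given as a description, since they entered the rule. Authors' values at members ran from 3.08 to 98.9 in CHD4 replicate 1 (median 8.50) and from 3.02 to 135 in replicate 2 (median 10.7). Medians were 9.73 and 13.9 at distal sites with MBD3. Peaks had a median width of 228 bp, against 293 bp at distal sites with MBD3. The nearest protein-coding TSS lay at a median of 15914 bp, and 1278 members (35.7%) lay within 10 kb of it. Midpoints were intergenic at 60.6%, intronic at 36.7% and exonic at 2.63% of members, and 168 members (4.70%) lay within 1 kb of the TSS of some other annotated transcript.

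Absence of MBD3 was a matter of overlap. An MBD3 peak lay within 1 kb of 612 members (17.1%, 15.9 to 18.4) without touching them, and the median gap to the nearest MBD3 peak of either list was 11802 bp. The shares of ZFP296, SIN3A and B2-like copies were 3.91%, 2.19% and 28.8% in the 2964 members with no MBD3 peak within 1 kb. In that setting they were 29.3%, 14.4% and 5.33% in the 3282 distal sites with an MBD3 peak within 1 kb. The B2-like contrast was thus smaller there than with overlap. Another member lay within 10 kb of 1410 members (39.4%), and a distal CHD4 site with MBD3 lay within 10 kb of 1114 (31.2%). Neighbouring CHD4 replicate 1 peaks were counted as separate members, also where they overlapped the same peak of another list. By chromosome, members were 47.0% of the 730 replicated CHD4 sites on chromosome 8, 40.7% on chromosome 11, 47.9% on chromosome 17 and 41.9% of the 31 on chromosome X, against 43.4% of all replicated sites.

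At the TSS limit, the members just inside lay 1019 bp from Ccdc114, 1022 bp from Arid5b and 1032 bp from Myo10. The sites just outside lay 998 bp from Fkbp5, 998 bp from Klf15 and 978 bp from Plxdc1.

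Of the 10 best-ranked members, 6 held a B2-like and 2 a B1-like stretch in the direct search of their windows, but only 2 and 2 in the genome-wide search. Over all members the shares were 30.7% and 17.1% in the direct search, and 27.6% and 16.2% in the genome-wide search. The first lay in an exon of Dll3, a Notch ligand gene (chr7:29083840-29084236), with authors' values of 98.9 and 135. It was followed by an intergenic site near Nfam1 (chr15:82876538-82877080, values 46.0 and 77.8) and a site in an intron of Pde9a, a phosphodiesterase gene (chr17:31566369-31566705, values 33.9 and 51.5). None of these had a ZFP296 or SIN3A peak. Their central sequences are shown because they ranked best. The first held a CTCF core string and no SINE by either search. The sites near Nfam1 and in Pde9a held a B2-like stretch in the direct search only, so none of their bases is in capitals.
Member at Dll3, chr7:29083938-29084137: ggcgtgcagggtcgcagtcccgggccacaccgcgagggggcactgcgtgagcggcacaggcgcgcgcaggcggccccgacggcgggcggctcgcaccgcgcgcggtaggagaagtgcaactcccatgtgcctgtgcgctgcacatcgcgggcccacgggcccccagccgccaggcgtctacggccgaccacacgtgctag
Member near Nfam1, chr15:82876709-82876908: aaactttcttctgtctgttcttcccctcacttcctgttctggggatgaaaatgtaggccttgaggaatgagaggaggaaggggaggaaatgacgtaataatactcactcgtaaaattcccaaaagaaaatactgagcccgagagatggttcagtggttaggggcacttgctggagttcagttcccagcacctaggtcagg
Member in Pde9a, chr17:31566437-31566636: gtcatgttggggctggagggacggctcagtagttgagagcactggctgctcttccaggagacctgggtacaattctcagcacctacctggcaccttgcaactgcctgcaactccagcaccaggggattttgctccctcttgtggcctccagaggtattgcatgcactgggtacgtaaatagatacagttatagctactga

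Further members among these 10 lay near 4930555I21Rik, Tbx3, Bcl3, Prrc2b, Gm15319 and Atp6v1b1. Those near Tbx3 (values 32.0 and 63.6) and Atp6v1b1 (33.5 and 31.6) held a B2-like copy in both searches, those near 4930555I21Rik and Prrc2b in the direct search only, and that near Gm15319 a B1-like copy. None of the 10 best-ranked members had a ZFP296 peak, and 1, near Gm15319, had a SIN3A peak, in the list without spike-in (value 8.63). Over all members these shares were 4.59% and 8.78%, so 10 sites are too few to tell the best-ranked from the rest.

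Of the 21 members with both ZFP296 and SIN3A, the best-ranked lay 11244 bp from Tsc22d1, in an intron of Esrrb and near Dnajb8. The intron of Esrrb, which encodes an orphan nuclear receptor of naive pluripotency, held a site with values of 9.40 and 11.7 for CHD4 and 38.2 for ZFP296, and an MBD3 peak lay 161 bp away. The site near Tsc22d1 (CHD4 values 9.96 and 13.4) is printed as the example of a member with both factors. It held neither element in either search, and of the 10 strings only that of SOX2.
Member near Tsc22d1, chr14:76915461-76915660: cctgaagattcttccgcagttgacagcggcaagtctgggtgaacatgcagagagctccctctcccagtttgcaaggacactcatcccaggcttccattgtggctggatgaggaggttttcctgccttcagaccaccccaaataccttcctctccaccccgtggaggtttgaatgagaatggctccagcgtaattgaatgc

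Genes were counted by members within 100 kb of a TSS, with no test and with neighbours sharing members. Nkain1 had 16. Tbx3 had 14, and Gdf15, a secreted factor of the TGF-β family, and Rbpms had 13 each. Cd9, which encodes a tetraspanin, and Gm10244 on chromosome 6 had 12 each, as had Gm11175, Lrrc25 and the AP-1 gene Jund, which lie close to Gdf15 on chromosome 8. Counts per gene were not adjusted for the density of members along chromosomes. Among autosomes it ran from 0.671 members per Mb on chromosome 14 to 2.60 on chromosome 8, with 2.09 on chromosome 6. Of the pluripotency genes below, Nanog and Dppa3 lie on chromosome 6 and Klf2 and Zfp42 on chromosome 8.

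Pluripotency genes were often near members. Of 19 annotated pluripotency factors, 15 (78.9%, 54.4 to 93.9) had a member within 100 kb, against 29.1% of all 22219 protein-coding genes. Distal sites with MBD3 lay near 14 of 19 (73.7%), against 21.4% of all. Besides Tbx3, members lay near Nanog (11), Klf2 (11), Pou5f1 (10), Sall4 (10), Dppa3 (9, which lies beside Nanog and shares members with it), Zfp42 (8), Klf5 (3) and Lin28a (3). Over all members, 27.6% held a B2-like copy, 16.2% a B1-like copy and 4.59% a ZFP296 peak. The counts at single genes below are few and were not tested against these shares. Of the 10 members near Pou5f1, which encodes OCT4, 5 held a B2-like copy and 1 a ZFP296 peak, and the nearest lay 5036 bp from a TSS. Of the 11 near Nanog, 3 held a B2-like and 3 a B1-like copy, none had ZFP296, and the highest value in CHD4 replicate 1 was 32.1. Of the 14 near Tbx3, 6 held a B2-like copy and 2 overlapped a ZFP296 peak. These 2 were adjacent CHD4 peaks with the same ZFP296 value (13.5), so they may share a single ZFP296 peak.

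Genes of NuRD, SIN3 and their partners followed, with 15 of 24 (62.5%, 40.6 to 81.2), against 8 of 24 near distal sites with MBD3. The NuRD subunit gene Mta3 had 9 members, Rbbp4 had 5 and Gatad2a 3, the zinc finger gene Sall1 had 9 and the HP1 gene Cbx5 had 4. Signalling genes had 13 of 25 (52.0%, 31.3 to 72.2), against 18 of 25 near distal sites with MBD3, among them Nodal (6), Socs3 (6), Smad7 (6), Lefty1 and Lefty2 (4, the same members), Id1, Lifr, Tdgf1 and Etv5 (3 each). Formative and primed factors had 5 of 12 (41.7%), with Tcf15 (4) and Zic2 (3). Mesoderm and endoderm factors had 3 of 12, and neural factors 1 of 13 (7.69%, 0.195 to 36.0). Cytosolic ribosomal protein genes, a list made by symbol that also takes in Rps6ka1, a kinase gene, and annotated copies, had 58 of 143 (40.6%, 32.4 to 49.1), with at most 5 members for a ribosomal protein (Rpl38). These counts changed without CHD4 replicate 1, where, with 17369 members, they were 18 pluripotency, 8 formative, 11 neural, 9 mesoderm and endoderm, 23 NuRD and SIN3, 24 signalling and 107 ribosomal protein genes, and 62.6% of all protein-coding genes had a member within 100 kb. Neural factors were then at 84.6% (54.6 to 98.1).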

How the data were processed

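ChIP-seq peak lists of 9 of the 36 samples were used, and the other 27 were not analysed here. The authors mapped reads to mm9 with BWA, kept uniquely mapped reads, applied a quality filter, dropped duplicates and called peaks per sample with MACS2 2.0 against an input of the cell line. Each deposited peak carries a −log10 value, and whether of p or of q is not given in the sources used here. Lists were not pooled. The lowest value in the SIN3A list without spike-in was 4.21, against 3.02 in the list with spike-in.

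Groups came from sample titles. Overlap was 1 bp, TSS and gene positions were from GENCODE vM1, and coordinates are 1-based mm9. Classes were compared by two-sided Fisher's exact tests (conditional odds ratio) and medians or means by permutation (100000 resamples, smallest p 1e-05), with Benjamini-Hochberg adjustment within families of 6 occupancy, 30 string, 6 composition, 6 peak value, 6 element and 4 element-split tests. Members and lists were chosen with earlier results of these data known, and the element analysis was added after the data were seen. The 3 planned tests of repeat-masked sequence were not run, because the reference sequence used here carries no repeat masking. Elements were built from words of 14 nt extended while a word occurred in 0.5% of windows. Copies were found by blastn of mm9 (word size 11, e-value 1e-5), and, as an alternative, by searching the windows themselves (word size 7). SIN3A sites are peaks of the list with spike-in that overlap the list without it.

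Named sites were the 10 best-ranked members, the 3 best-ranked with ZFP296 and SIN3A, the 3 best-ranked with the OCT4-SOX2 string, and 3 on each side of the TSS limit. Named genes were the 10 with most members within 100 kb and list genes with at least 3, of which ribosomal protein genes are summarised. The printed member with an element copy was chosen after its values were seen. Some items that these rules name are not reported here. Functions were tested on simulated data. Python 3.11.15, numpy 2.4.6, scipy 1.17.1, statsmodels 0.14.6, pyfaidx 0.9.0.4, blastn 2.17.0, samtools 1.23.1 and matplotlib 3.10.9 were used.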

Additional observations from a re-analysis of the deposited data

How the results depend on the processing

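No paired analysis was possible because the results come from overlaps of peak lists and not from tests over samples, so the replicate numbers shared by the MBD3 and CHD4 lists could not enter a fit. The 3 planned tests of repeat-masked sequence were not run. Of 430 alternative values, 383 kept their direction and their side of the threshold or, for counts, stayed within 1.5 times.

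For ZFP296 at members, the odds ratio against sites kept in NPCs no longer passed with overlap of 50% of the shorter peak (1.38) or a TSS limit of 5 kb (1.81). Against promoter sites, where the reported odds ratio was below 1 without passing, it was 1.08 with an authors' value of at least 5 in every list and 1.05 at sites with no element. The odds ratio of SIN3A against sites kept in NPCs was 0.818 with the list without spike-in alone. The difference in ZFP296 value was -0.60 against promoter sites with the limit at 5 kb and 0.50 against sites kept in NPCs with values of at least 5. The G+C difference in 500 bp was -0.40 percentage points against distal sites with MBD3, and 0.80 against sites kept in NPCs, which passed. B1-like copies lost the call against promoter sites at 5 kb (1.20), without chromosomes 6 and 8 (1.57) and with copies of at least 100 bp and 85% identity (1.59), and against sites kept in NPCs in 500 bp (1.36). With those longer copies, the B2-like odds ratio against sites kept in NPCs was 0.722 and did not pass, and ZFP296 at members with B1-like copies was at 0.638 (0.587 at 5 kb). The cause was not tested.

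Leaving out 1 ESC list at a time gave 3833 to 17369 members and 17 to 26 strings past the threshold. The odds ratio of ZFP296 ran from 0.910 to 1.42 against promoter sites and from 0.908 to 2.90 against sites kept in NPCs, and at members with B1-like copies from 0.439 to 0.851. Differences in ZFP296 value ran from -1.47 to -1.13 against distal sites with MBD3, from -0.48 to 0.55 against promoter sites and from -1.99 to 0.55 against sites kept in NPCs. Differences in SIN3A value ran from -1.45 to -0.054 and from -1.54 to -0.42 against the first and second of these. G+C differences ran from 0.5 to 1 against distal sites with MBD3 and from -0.75 to 0 against sites kept in NPCs. Of the lists, 5 to 8 formative, 1 to 11 neural, 3 to 9 mesoderm and endoderm, 15 to 23 NuRD and SIN3, 16 to 24 signalling and 61 to 107 ribosomal protein genes had a member nearby. Replicates left out also turned the direction of ZFP296 against sites kept in NPCs (0.908, without CHD4 replicate 1), of ZFP296 against promoter sites (1.42, without MBD3 replicate 2), and of ZFP296 value against promoter sites (-0.24 and -0.48, without CHD4 replicate 1 or MBD3 replicate 1) and sites kept in NPCs (0.55, without MBD3 replicate 2). Read numbers per peak are not in the lists, so how depth limits these shares could not be measured.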
